A study of Homo sapiens with 4 samples.

Results

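The 34 genes described here are known targets or inhibitors of the p53 tumour suppressor together with 10 genes of the BCL2 family, the proteins that decide whether a cell opens its mitochondria and dies. They were chosen by name, as a list of p53 pathway and BCL2 family genes, with earlier results of these data known. Of the 34080 genes with a transcript in the files, 13569 had enough reads to be tested, and 33 of the 34 were among them. The exception was SPATA18, a mitochondrial quality-control gene, with 0.698 and 0 CPM in Doxy(-) and 0.233 and 0.223 CPM in Doxy(+). CPM, the unit of level used throughout, is the read count scaled to a library total of 1000000 after TMM normalization, and 3 counts, the limit that a count of 0 allows, equal between 0.204 and 0.233 CPM here.

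Polyadenylated RNA was sequenced from HK-2 cells, a human renal proximal tubule line that was immortalised with papillomavirus oncogenes. All 4 libraries came from cells carrying a Tet-On construct that makes HA-tagged PRCC-TFE3, the fusion protein of a class of kidney cancer, when doxycycline is given. Doxy(-) cells received no doxycycline (2 libraries) and Doxy(+) cells received 0.2 microg/ml for 24 h (2 libraries). No doxycycline-treated HK-2 cells lacking the construct were analysed here, so effects of the drug and of the fusion cannot be told apart. The labels do not say whether replicates came from separate cultures, so p-values measure the spread between these libraries, which may be technical.

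The p53 protein is a transcription factor that is switched on by DNA damage and other stress and then raises genes for cell cycle arrest, DNA repair, metabolism and death. MDM2 and MDM4 hold it down in unstressed cells. In the BCL2 family, BAX and BAK1 form the pores in the outer mitochondrial membrane, BCL2, BCL2L1 and MCL1 restrain them, and the BH3-only proteins relay stress signals that release the restraint. The papillomavirus E6 protein recruits the ubiquitin ligase encoded by UBE3A to degrade p53, so a line immortalised in this way is one in which p53 protein can be low. Protein was not measured here. TFE3 and its relatives bind E-box sequences with the core CACGTG.

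The estimated counts summed to between 14042545 and 16618401 reads per library. TFE3, whose count includes whatever fusion reads the authors' quantifier placed there, was 66.9 and 69.1 CPM in Doxy(-) and 367 and 322 CPM in Doxy(+), in the direction of the labels. Of 8 renal epithelial markers, 6 had a mean of at least 1 CPM, against 3 of 12 proximal tubule markers (SLC5A2, GGT1 and MME), and the transporters SLC22A6 and SLC22A8 were at 0 in all 4 libraries. The summed proximal tubule markers ranged from 79.8 to 80.4 CPM in Doxy(-) and from 96.7 to 103 CPM in Doxy(+), and the renal epithelial markers from 2158 to 2163 and from 1844 to 1876 CPM. GGT1 made most of the proximal tubule sum, at 68.7 and 69.4 CPM in Doxy(-) and 78.1 and 86.0 CPM in Doxy(+). Markers of fibroblasts (3 of 6 detected) summed to between 186 and 196 CPM in Doxy(-) and between 202 and 204 CPM in Doxy(+). LUM made most of that sum, at 160 and 174 CPM in Doxy(-) and 185 and 184 CPM in Doxy(+). COL1A1 was lower in Doxy(+), at 22.3 and 20.2 CPM against 16.7 and 15.5 CPM, and COL3A1 was at 0. Leukocyte markers summed to between 144 and 150 CPM and between 190 and 191 CPM, almost all of it CD68, which encodes a lysosomal protein, with CD3E at 0. The sum of 4 endothelial markers stayed at or below 1.05 CPM. The part of these shifts in the results was not tested.

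At an adjusted p under 0.05 in edgeR's quasi-likelihood test, TP53INP1, ZMAT3, BAK1, GADD45A, RRM2B and SERTAD1 rose and PLK2 fell. These 7 of 33 tested genes make 21.2%, beside 19.3% of all 13569 genes tested. By direction, the background was 9.76% higher and 9.53% lower. The largest rise was that of TP53INP1, by 38.4%, and PLK2 fell by 32.5%. No gene of the list passed the adjusted p limit together with a more than 2-fold change, which 1.98% of all tested genes did (1.5% higher and 0.479% lower). At an unadjusted p under 0.05 there were 13 (7 higher and 6 lower), beside a background of 33.4%.

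The median log2 fold change over the 33 genes was 0.016 beside 0.00062 over all genes tested, and the median size of the log2 fold change, whatever its sign, was 0.20 beside 0.17. Both Doxy(+) libraries lay above both Doxy(-) libraries for 14 of the genes, below them for 8, and the groups overlapped for 11. Over all tested genes the shares without overlap were 31.1% above and 30% below (61.1% in all). Among the 23 tested p53 pathway genes outside the BCL2 family 5 rose and 1 fell (26.1%). Of the 10 BCL2 family genes 1 rose (10%), and the share over all tested genes was 19.3%. In bulk RNA, more RNA per cell and more cells that carry it cannot be told apart.

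**Figure D1:**
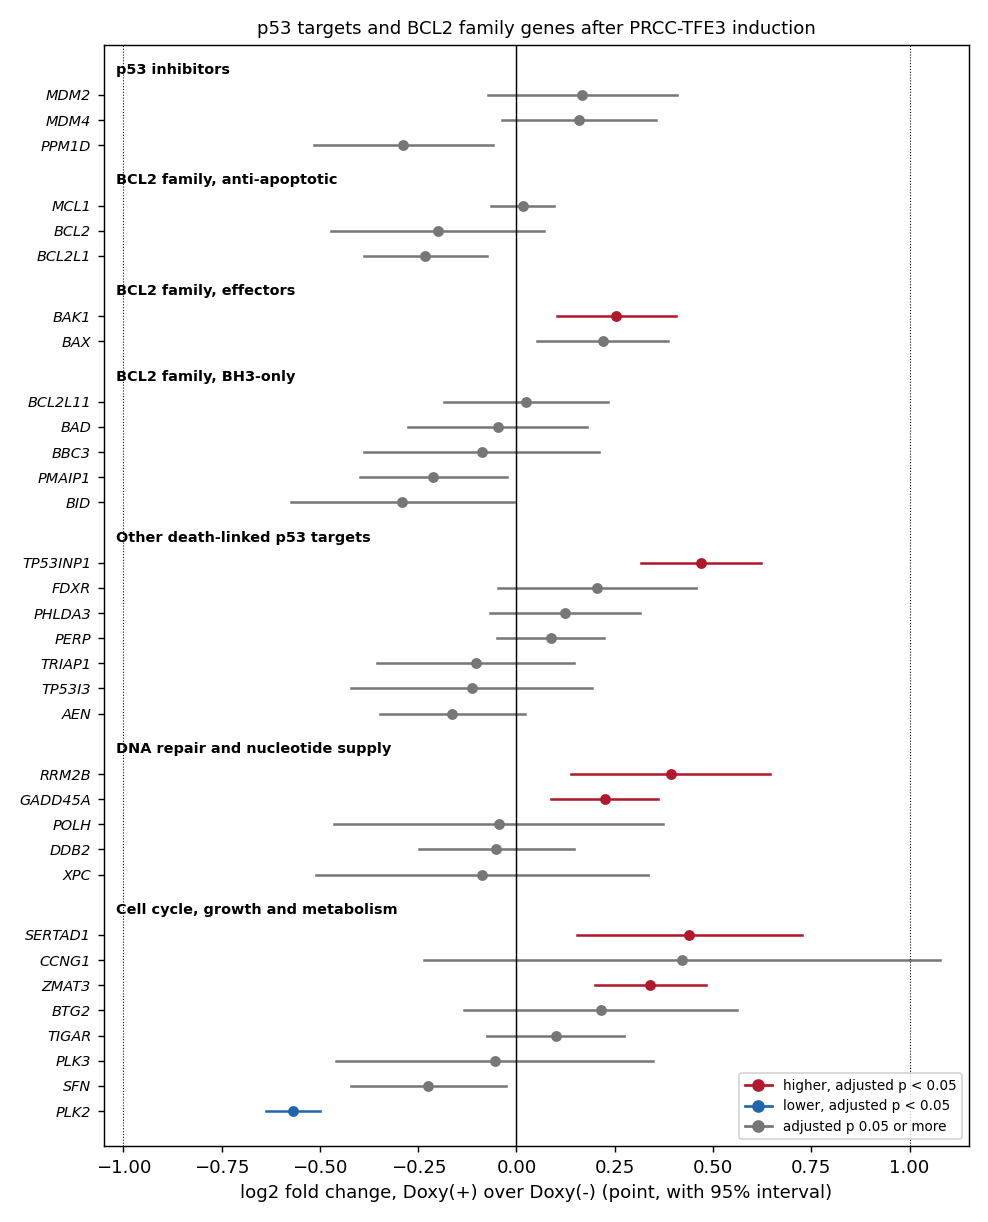
Log2 fold change of the 33 tested genes, Doxy(+) over Doxy(-), by role. Points are edgeR estimates and bars their 95% intervals, red and blue mark an adjusted p under 0.05, and the dotted lines mark a log2 fold change of 1 in either direction. The points run from -0.57 for PLK2 to 0.47 for TP53INP1, and the intervals of CCNG1, XPC and POLH are among the wide ones.

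How firmly these 7 changes stand differs from gene to gene. PLK2 passed under all 14 alternative analyses and TP53INP1 under 12 of 14, while BAK1, GADD45A, RRM2B and SERTAD1 each lost the call when any single library was left out. Such a fit leaves 1 library in a group, and in each a smaller share of all genes was called too. Over the 14 alternatives the log2 fold change of BAK1 ran from 0.216 to 0.297 and that of GADD45A from 0.182 to 0.264. RRM2B ran from 0.283 to 0.625 and SERTAD1 from 0.377 to 0.497. ZMAT3 lost the call without Doxy(+) 1 and without Doxy(+) 2, and not without either Doxy(-) library. DESeq2 on the same counts called PLK2 and TP53INP1 alone among the 33, with 11.5% of all genes called.

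PLK2 encodes a polo-like kinase that acts at centrosomes and is a known p53 target. It was the one gene of the list that fell. Its level was 542 and 542 CPM in the Doxy(-) libraries and 365 and 366 CPM in the Doxy(+) libraries. The replicates lay within 1 CPM of each other in both groups, and the groups were far apart. The log2 fold change was -0.57 ± 0.028 (SE, n = 2 per group; edgeR adjusted p = 0.000202). The gene lies on chromosome 5 at 58453982 to 58460139 (hg38, minus strand), and its main protein-coding transcript, PLK2-201, held between 87.2% and 89.7% of its count in every library. Its promoter is one of 4 among the 29 with a RefSeq promoter sequence that hold a p53 half-site consensus, the 10-base element that p53 binds in pairs. It is printed because PLK2 has the clearest change of the list. The 250 bases before the RefSeq start site (GRCh38.p14, chr5:58460087-58460336, minus strand, written 5′ to 3′) carry the match, in capitals, 132 bases before the start.
PLK2: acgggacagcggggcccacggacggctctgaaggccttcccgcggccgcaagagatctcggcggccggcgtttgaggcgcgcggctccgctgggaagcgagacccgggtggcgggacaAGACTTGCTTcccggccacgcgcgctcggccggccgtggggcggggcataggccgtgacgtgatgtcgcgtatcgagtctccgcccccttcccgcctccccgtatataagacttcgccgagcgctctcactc
Of 27305 RefSeq promoters of 250 bases before to 50 after the start, 6.54% hold such a match. A full p53 site, with up to 13 bases between its 2 half-sites, was in none of the 29 promoters and in 0.0293% of all.

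**Figure D2:**
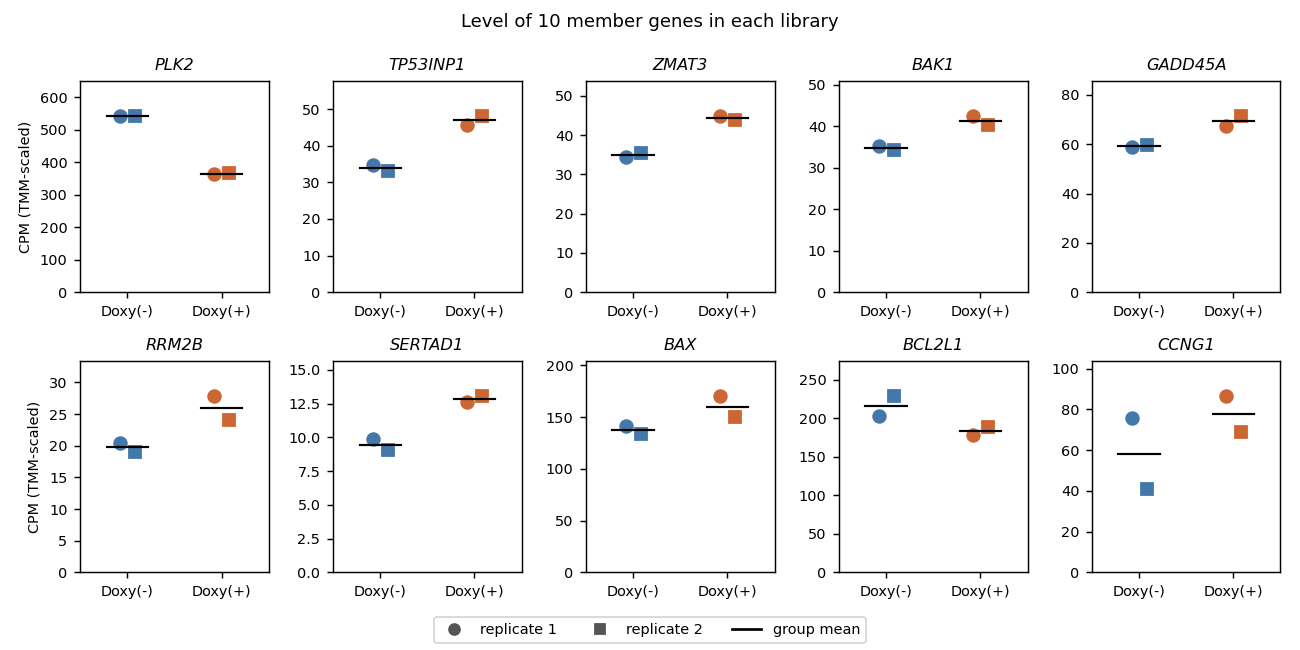
Level in CPM of 10 genes in each library. Circles are replicate 1, squares replicate 2, lines group means, and each axis starts at 0. PLK2 separates the groups with almost no spread within them, TP53INP1 rises from below 35 to above 45 CPM, and for CCNG1 the Doxy(-) libraries lie 75.6 and 41.0 CPM apart.

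The inhibitors of p53 did not pass the test in either direction, while 19.3% of all genes tested did. MDM2, the ubiquitin ligase that marks p53 for degradation and is itself raised by it, was 14.5 and 15.7 CPM in Doxy(-) and 16.8 and 17.2 CPM in Doxy(+). Both induced libraries were above both controls, and the log2 fold change of 0.17 had a 95% interval of -0.07 to 0.41 (edgeR adjusted p = 0.295). The MDM2 value rests on short transcripts. Its canonical transcript MDM2-202, of 7198 nt in the files, was listed at under 1 count in every library, and identifiers that match no gene were left out, so this sum may hold only a small part of MDM2, and its level and fold change are uncertain. MDM4, the MDM2 relative that blocks p53's activation domain, was 35.1 and 40.4 CPM against 42.3 and 42.1 CPM (log2 fold change 0.16, 95% interval -0.04 to 0.35). PPM1D, a phosphatase that switches off p53 signalling, was 21.8 and 23.0 CPM in Doxy(-) and 17.6 and 19.1 CPM in Doxy(+). Its groups did not overlap, and its log2 fold change of -0.29 had an edgeR adjusted p of 0.0851. UBE3A, the ligase that E6 borrows, was 13.4 and 11.9 CPM in Doxy(-) and 16.8 and 6.93 CPM in Doxy(+), with a wide interval of -1.0 to 0.81 on the log2 scale and its canonical transcript not among those matched.

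Among the anti-apoptotic members, which bind and hold pore formers and BH3-only proteins, none passed the test, beside 19.3% of all genes tested. MCL1, a short-lived protein, was 276 and 269 CPM in Doxy(-) and 277 and 275 CPM in Doxy(+). These groups overlapped, and the interval of -0.06 to 0.10 around a log2 fold change of 0.016 was the narrow one of the family. BCL2L1, which encodes BCL-XL, was 203 and 228 CPM against 178 and 189 CPM. Both induced libraries lay below both controls, with a log2 fold change of -0.23 ± 0.064 (SE, n = 2 per group) and an edgeR adjusted p of 0.0547. Without Doxy(-) 1 it was -0.32 with an adjusted p of 0.00501, without Doxy(-) 2 it was -0.14 with 0.0885, and without Doxy(+) 1 or Doxy(+) 2 the adjusted p was 0.240 or 0.0999. BCL2 itself was 29.2 and 25.2 CPM in Doxy(-) and 25.3 and 22 CPM in Doxy(+), overlapping, with a log2 fold change of -0.20 and an interval of -0.47 to 0.07.

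Both pore-forming effectors were higher in both Doxy(+) libraries than in either Doxy(-) library, as were 31.1% of all tested genes. BAK1, which resides on the mitochondrial outer membrane, was 35.1 and 34.2 CPM in Doxy(-) and 42.4 and 40.3 CPM in Doxy(+). The log2 fold change was 0.25 ± 0.062 (SE, n = 2 per group; edgeR adjusted p = 0.0379), a rise of 19.2%. Exons of BAK1 overlap those of GGNBP1 on the other strand, and BAK1P1 and BAK1P2 are pseudogenes of it, so the division of its reads is less certain. BAX, which moves to mitochondria when activated, was 142 and 133 CPM in Doxy(-) and 170 and 150 CPM in Doxy(+). Here the log2 fold change of 0.22 ± 0.068 had an edgeR adjusted p of 0.077. Without Doxy(+) 2 it was 0.31 with an adjusted p of 0.0418, and without Doxy(+) 1 it was 0.12 with 0.339. Without Doxy(-) 1 or Doxy(-) 2 the adjusted p was 0.059 or 0.160. Their promoters are shown because BAX holds more copies of the E-box core than any other of the 29 promoters at hand and BAK1 is the family member that passed the test.

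In the printed 250 bases before the RefSeq start of each gene (GRCh38.p14; BAX chr19:48954625-48954874, plus strand; BAK1 chr6:33580277-33580526, minus strand; written 5′ to 3′), capitals mark the E-box core CACGTG in BAX and the p53 half-site consensus in BAK1.
BAX: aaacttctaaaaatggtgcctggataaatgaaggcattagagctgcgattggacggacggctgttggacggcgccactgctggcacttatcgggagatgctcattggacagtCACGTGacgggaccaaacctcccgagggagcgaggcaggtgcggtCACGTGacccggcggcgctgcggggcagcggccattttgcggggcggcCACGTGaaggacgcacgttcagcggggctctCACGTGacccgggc
BAK1: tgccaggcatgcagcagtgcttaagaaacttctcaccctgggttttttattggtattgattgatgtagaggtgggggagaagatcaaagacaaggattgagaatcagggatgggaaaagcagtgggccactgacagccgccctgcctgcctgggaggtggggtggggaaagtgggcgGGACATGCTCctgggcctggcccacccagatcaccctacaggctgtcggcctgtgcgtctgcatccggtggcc
BAX has 4 matches to CACGTG, beginning 138, 93, 45 and 14 bases before its start site, and 3 of them lie within the longer form TCACGTGA. BBC3 has 1 match, 232 bases before its start, also within TCACGTGA, and AEN has 1 at 8 bases past its start. Thus 3 of 29 promoters held CACGTG, beside 7.43% of 27305, and 2 of 29 held TCACGTGA, beside 1.04%. Each of these motifs reads the same on both strands. The matched letters do not show binding, and neither BAX nor BBC3 nor AEN passed the test. The p53 half-site consensus was in the promoters of PLK2, BAK1, AEN and FDXR. No RefSeq promoter sequence was given for MCL1, TP53INP1, PHLDA3, RRM2B and GADD45A.

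The 5 BH3-only genes had no member that passed, beside 19.3% of all genes tested. Their log2 fold changes ran from -0.29 to 0.024, with a median of -0.089 beside 0.00062 over all genes tested. BID, which caspase cleavage turns into an activator of BAX and BAK1, was 41.2 and 42 CPM in Doxy(-) and 29.7 and 38.2 CPM in Doxy(+). Its canonical transcript was not among those matched. Both Doxy(+) libraries were lower, unequally so, and the log2 fold change was -0.29 (edgeR adjusted p = 0.143). Without Doxy(+) 2 it was -0.48 with an adjusted p of 0.0293, and without Doxy(+) 1 it was -0.12 with 0.440. PMAIP1, which encodes NOXA, a partner of MCL1, was 78.8 and 87.8 CPM against 75.6 and 68.5 CPM. Its groups did not overlap (log2 fold change -0.21, edgeR adjusted p = 0.112), and without Doxy(-) 1 the adjusted p was 0.0377. It was 0.299 without Doxy(-) 2 (log2 fold change -0.13), 0.141 without Doxy(+) 1 and 0.405 without Doxy(+) 2 (log2 fold change -0.14). BBC3, which encodes PUMA, the strong p53-induced killer, was 14.7 and 15.0 CPM in Doxy(-) and 12.7 and 15.2 CPM in Doxy(+). BAD, which growth factor signalling keeps inactive, was 23.3 and 25.4 CPM against 22.4 and 24.7 CPM. BCL2L11, which encodes BIM, was 26.1 and 27.6 CPM against 28.7 and 25.8 CPM. The groups overlapped for these last genes, and their 95% intervals stayed between -0.39 and 0.23.

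Levels of different genes can be set side by side only per transcript length, as TPM summed per gene, the length-corrected share of a gene in its library. In the Doxy(-) libraries the family ran from BAX at 307 ± 37.9 TPM (SD, n = 2) down to BCL2 at 7.94 ± 1.11 TPM. Next below BAX came BCL2L1 at 138 ± 8.14 TPM and MCL1 at 119 ± 1.23 TPM, whose ranges over all 4 libraries overlapped. PMAIP1 at 86.5 ± 3.66 TPM and BID at 78.5 ± 1.55 TPM followed, and their ranges overlapped too. Below them stood BAD at 41.7 ± 3.97 TPM and BAK1 at 24.3 ± 0.576 TPM. BBC3 at 15.3 ± 0.214 TPM and BCL2L11 at 11.4 ± 1.31 TPM also overlapped over the 4 libraries. Much of the BAX value came from very short transcripts, and BAX-208, of 383 nt in the files, alone made between 22.3% and 40.0% of its TPM. BCL2L11 differed between scales: its TPM values kept the groups apart, with 12.4 and 10.5 TPM in Doxy(-) against 15.3 and 14.5 TPM in Doxy(+), while its CPM overlapped.

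**Figure D3:**
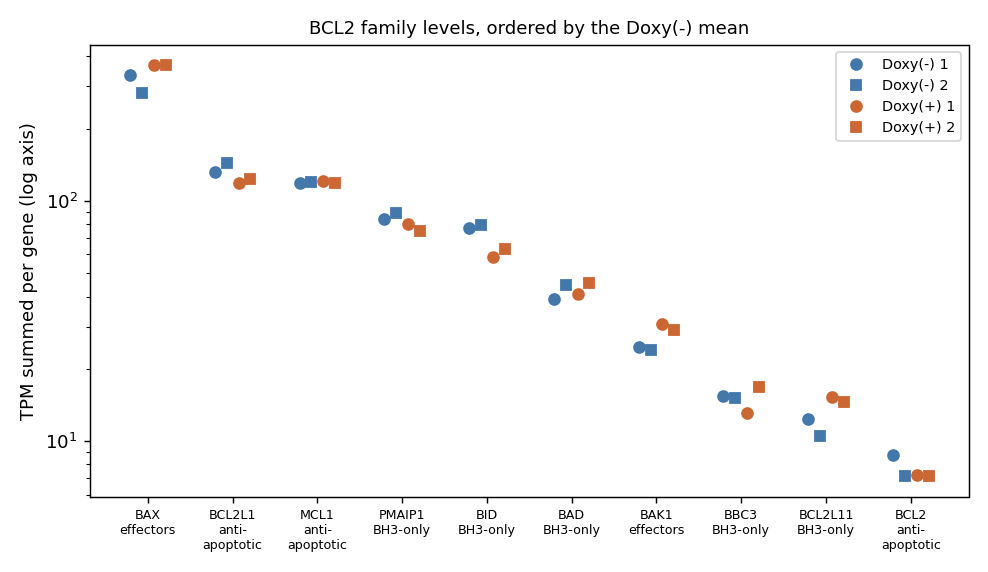
TPM summed per gene on a log axis for the 10 BCL2 family genes, ordered by the Doxy(-) mean. Blue marks are Doxy(-), orange marks Doxy(+), circles replicate 1 and squares replicate 2. BAX stands above 280 TPM in all libraries and BCL2 below 9 TPM, and both BAK1 marks of Doxy(+) lie above those of Doxy(-).

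Of the other death-linked p53 targets, TP53INP1 alone passed, 1 of 7 tested (14.3%, beside 19.3% of all genes). TP53INP1 encodes a stress protein that promotes p53 phosphorylation and autophagy. It was 34.8 and 33.1 CPM in Doxy(-) and 45.7 and 48.0 CPM in Doxy(+), well separated. The log2 fold change was 0.47 ± 0.063 (SE, n = 2 per group; edgeR adjusted p = 0.00484). In limma on log2(TPM + 1) the adjusted p was 0.0884. Exons of TP53INP1 overlap those of NDUFAF6 on the other strand, and whether the authors' counting used the strand is not stated.

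The remaining genes of that group gave small differences. FDXR, a mitochondrial ferredoxin reductase, was 12.6 and 12 CPM against 14.3 and 14 CPM (log2 fold change 0.21, edgeR adjusted p = 0.227). PHLDA3, a repressor of AKT, was 40.5 and 35.7 CPM against 40.7 and 42.2 CPM, and PERP, a membrane protein of desmosomes, was 52.2 and 53.8 CPM against 57.5 and 55.1 CPM. In all 3 of these the groups did not overlap and Doxy(+) was higher, as in 31.1% of all tested genes. For PHLDA3 and PERP the Doxy(-) libraries lay farther apart than the gap between the groups. AEN, a nuclease of apoptotic cells, went the other way at 45 and 40.4 CPM against 39.1 and 37.0 CPM (log2 fold change -0.16, edgeR adjusted p = 0.194). TRIAP1, a mitochondrial lipid-transfer partner that opposes death, was 21.6 and 23.1 CPM against 22.3 and 19.4 CPM. TP53I3, an oxidoreductase linked to oxidative stress, was 14.6 and 13.9 CPM against 12 and 14.4 CPM. The last pair overlapped between groups.

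In the repair group, 2 of 5 genes rose, beside 9.76% of all genes. Both lost the call when any single library was left out, where a smaller share of all genes was called too. GADD45A, a stress protein that acts in growth arrest and DNA repair, was 59.0 and 59.7 CPM in Doxy(-) and 67.4 and 71.4 CPM in Doxy(+). The groups were well apart, with a log2 fold change of 0.22 ± 0.056 (SE, n = 2 per group; edgeR adjusted p = 0.0393). RRM2B, the p53-induced subunit of ribonucleotide reductase that supplies deoxynucleotides, was 20.5 and 19.1 CPM against 27.8 and 24.1 CPM. The induced libraries were both higher and also spread wider, and the log2 fold change was 0.39 ± 0.103 (edgeR adjusted p = 0.047). The nucleotide excision repair sensors did not pass the test, with DDB2 at 23.0 and 23.3 CPM against 21.8 and 22.9 CPM and XPC at 19.1 and 17.6 CPM against 20.3 and 14.2 CPM. POLH, the polymerase that copies past ultraviolet lesions, was 26.7 and 26.5 CPM in Doxy(-) and 20.9 and 30.6 CPM in Doxy(+), so that the induced libraries lay on either side of the controls.

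In the cell cycle, growth and metabolism group ZMAT3 and SERTAD1 rose beside the fall of PLK2. These 3 of 8 genes make 37.5%, beside 19.3% of all genes. ZMAT3, an RNA-binding zinc finger protein that acts in splicing, was 34.5 and 35.5 CPM in Doxy(-) and 44.8 and 43.8 CPM in Doxy(+). The spread within groups was about 1 CPM, and the log2 fold change was 0.34 ± 0.058 (SE, n = 2 per group; edgeR adjusted p = 0.0113). SERTAD1, a CDK4-binding regulator of E2F-driven transcription, was 9.85 and 9.05 CPM against 12.6 and 13 CPM. Its log2 fold change was 0.44 ± 0.118 at an edgeR adjusted p of 0.0492, from the fewest reads among the genes that passed.

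Of the genes in this group that did not pass, CCNG1, cyclin G1, depended most on a single library. It was 75.6 and 41.0 CPM in Doxy(-) and 86.4 and 68.8 CPM in Doxy(+), and Doxy(-) 2 stood well below the other 3. The log2 fold change of 0.42 had an interval of -0.24 to 1.08. It was 0.92 with an edgeR adjusted p of 0.00429 without Doxy(-) 1, and 0.04 with 0.882 without Doxy(-) 2. SFN, the 14-3-3 protein that holds cells before mitosis, was 48.3 and 46.5 CPM against 43.5 and 37.7 CPM (log2 fold change -0.23, edgeR adjusted p = 0.110). BTG2, an antiproliferative gene, was 8.69 and 10.6 CPM against 11.5 and 10.9 CPM, and TIGAR, which lowers fructose bisphosphate and so glycolysis, was 27.8 and 26.9 CPM against 28.7 and 29.9 CPM. PLK3, a relative of PLK2, was 14.5 and 11.4 CPM against 11.2 and 13.7 CPM, overlapping. PLK2 and PLK3 thus had log2 fold changes of -0.57 and -0.06, with intervals of -0.64 to -0.50 and -0.46 to 0.35.

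The transcript estimates, which depend on how shared reads were divided, split some gene sums between forms. TP53INP1 has a pair of coding transcripts, which in GENCODE release 44 differ by an exon of 38 nt. The form with that exon, TP53INP1-202, had 448 and 486 estimated counts in Doxy(-) and 437 and 511 in Doxy(+). The form without it, TP53INP1-201, was listed at 0 in both Doxy(-) libraries and at 152 and 134 in Doxy(+). So by these estimates the form present in all libraries had like counts in both groups, and the higher gene sum in Doxy(+) was assigned to the other form. These are counts not scaled for depth.

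POLH showed another such split. Its full-length transcript POLH-202 had 331 and 380 estimated counts in Doxy(-) and 82.1 and 300 in Doxy(+). POLH-201, whose reading frame stops early because it lacks the start of the last exon, was at 0 and 0.0439 in Doxy(-) and at 187 and 107 in Doxy(+). The Doxy(+) libraries also differed widely from each other in both transcripts.

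BCL2L1 makes a long form, BCL-XL, which protects cells, and a short form, BCL-XS, from an exon that is 189 nt shorter and which promotes death. The short form made 22% and 14% of the TPM of both forms in the Doxy(-) libraries, against 13.4% and 16.7% in Doxy(+), which overlapped. The MCL1 short form, which lacks the exon of 248 nt (chr1:150578244-150578491, hg38), made 6.52% and 7.01% in Doxy(-) and 6.0% and 7.30% in Doxy(+), also overlapping. These are estimates of how shared reads divide, with no test made. Of the 10 transcripts behind these forms, 6 have another length in the files than in GENCODE release 44, TP53INP1-201 by 33 nt and POLH-202 by 4828 nt, so the exons named are those of that release.

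**Figure D4:**
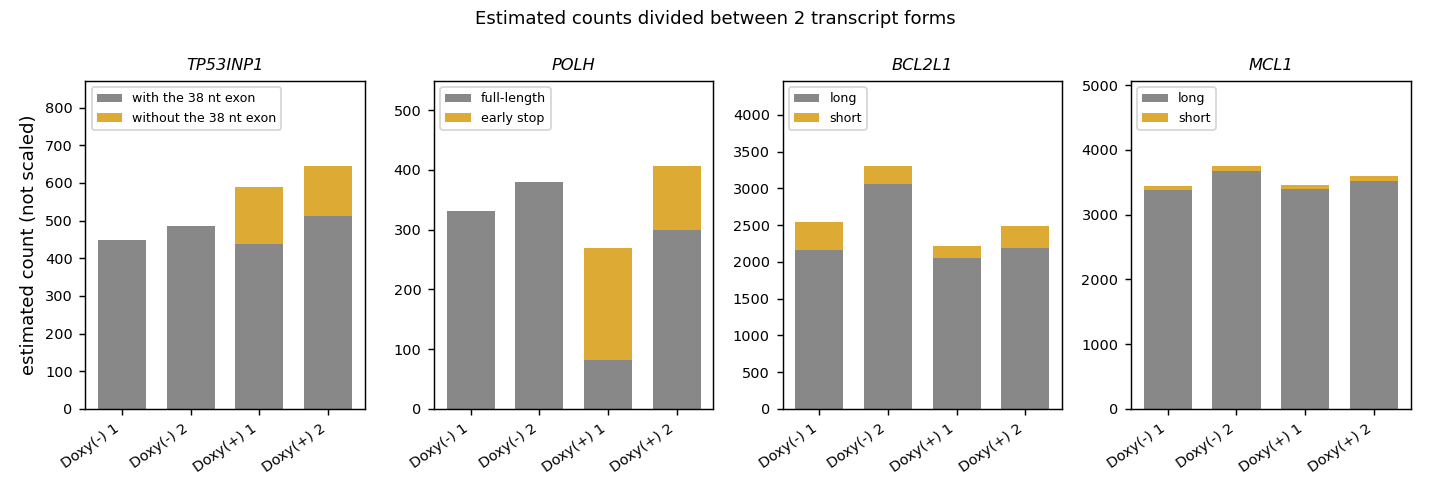
Estimated counts, not scaled for depth, of the transcript forms of TP53INP1, POLH, BCL2L1 and MCL1 in each library, stacked with one form in grey and the other in yellow. In TP53INP1 and POLH the yellow form appears only in the Doxy(+) bars, apart from 0.0439 counts of POLH in Doxy(-) 2, and in BCL2L1 and MCL1 it is present in all 4.

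Other genes of the pathway were counted as whole lists. Of 40 other p53 targets 36 were tested, and 7 rose and 3 fell (27.8%, beside the 19.3% of all genes). Their median log2 fold change was 0.04. CDKN1A, which encodes the cell cycle inhibitor p21, was 120 and 110 CPM in Doxy(-) and 232 and 219 CPM in Doxy(+), a log2 fold change of 0.97 ± 0.055 (edgeR adjusted p = 0.000283). GDF15, a secreted stress cytokine, was 183 and 169 CPM against 305 and 319 CPM (log2 fold change 0.83). ORAI3, a calcium channel subunit, was 13 and 12.7 CPM against 18.8 and 20.9 CPM (log2 fold change 0.63). Those that fell included IER5, an immediate early response gene, at 62.9 and 53.3 CPM against 46.3 and 40.5 CPM, and EPS8L2, an actin regulator, at 281 and 270 CPM against 229 and 231 CPM. The groups did not overlap for any of these 5, all named from those that passed the test, beside 61.1% of all tested genes without overlap. The Doxy(-) libraries of IER5 lay farther from each other than from the nearest Doxy(+) library. The targets FAS and TNFRSF10B, which encode death receptors, were chosen after their values were seen and did not pass, with log2 fold changes of 0.05 and -0.09.

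In the machinery downstream of the mitochondria, caspases and their regulators, 2 of 14 genes rose and 3 fell (35.7%, beside 19.3% of all genes). HTRA2, a mitochondrial protease that relieves caspase inhibition, rose from 32.6 and 29.0 CPM to 46.0 and 45.3 CPM (log2 fold change 0.57, edgeR adjusted p = 0.00453). BIRC5, survivin, a protein of mitosis and survival, fell from 117 and 118 CPM to 86.5 and 80.5 CPM (log2 fold change -0.49). BIRC3, an inhibitor of apoptosis that also serves NF-kB signalling, fell from 70.1 and 78.3 CPM to 54.8 and 55.0 CPM (log2 fold change -0.44). The other genes of this list that passed were XIAP and APAF1, named after their values were seen. XIAP rose from 93.2 and 107 CPM to 128 and 120 CPM (log2 fold change 0.31). APAF1 fell from 77.7 and 79.1 CPM to 66.8 and 66.5 CPM (log2 fold change -0.24). Of 21 p53 regulators 19 were tested, and 2 rose and 3 fell (26.3%, beside the same 19.3%), with a median log2 fold change of -0.10.

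Of the 13 BCL2 family genes outside the list 10 were tested, and 2 rose and 1 fell (30%, beside 19.3% of all genes). HRK, a BH3-only gene best known from neurons, was chosen after its values were seen, since it had the one log2 fold change over 1 with a passing test among the family. It was 0.388 and 0.612 CPM in Doxy(-) and 3.18 and 3.20 CPM in Doxy(+), from 5.12 and 9.13 estimated counts against 41.2 and 43.1. The log2 fold change was 2.64 ± 0.358 (edgeR adjusted p = 0.00505). BMF, another BH3-only gene and also chosen after its values were seen, was 11.8 and 9.53 CPM against 7.30 and 0.894 CPM. Its Doxy(+) libraries differed so much that a log2 fold change of -1.39 had an edgeR adjusted p of 0.228. The other genes of this list that passed were BCL2L13 and BOK, also named after their values were seen. BCL2L13 rose from 92.8 and 90.9 CPM to 117 and 114 CPM (log2 fold change 0.33). BOK fell from 109 and 106 CPM to 91.5 and 92.4 CPM (log2 fold change -0.22).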

How the data were processed

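The files hold, per library, the estimated counts and TPM per Ensembl transcript that the authors deposited. Per the labels, libraries were made with a stranded mRNA kit. The submitters' processing notes name Trim Galore 0.6.6, cutadapt 2.5, STAR 2.7.9a and hg38. The deposited estimated counts are not normalized, the deposited TPM values are scaled by transcript length and library total, and the columns have kallisto's layout. The annotation release and the use of strand are not given in the sources used here. Of 180253 identifiers 150691 (83.6%) matched GENCODE release 44. The rest held 9.66% to 9.89% of counts and stayed out. Gene sums were rounded and tested with edgeR 4.0.16 (R 4.3.3; glmQLFit and glmQLFTest, TMM, filterByExpr, group as the only term, two-sided), with Benjamini-Hochberg adjustment over all 13569 tested genes. The common biological coefficient of variation was 6.53%. Alternatives used DESeq2 1.42.0, limma 3.58.1, other scalings and filters, a replicate block and leaving out each library. The scripts were tested on simulated data. The limit of 3 counts covers counting error only, since reads carry no molecular identifiers.

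The members and lists were chosen with earlier results of these data known. All members are named, with TFE3, UBE3A and CDKN1A. From the other lists, at most 4 genes were named from each end of the log2 fold changes, among those with an adjusted p under 0.05 and a mean CPM of at least 5. FAS, TNFRSF10B, HRK, BMF, XIAP, APAF1, BCL2L13 and BOK were named outside this rule, after their values were seen. Promoters are RefSeq sequences on GRCh38.p14.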

Additional observations from a re-analysis of the deposited data

How the results depend on the processing

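Each group had 2 libraries. The count of genes that rose, 6, was 1 with DESeq2, 0 and 0 with limma on log2(TPM + 1) and log2(TPM + 0.1), 4 with no low-count filter (BAK1 and SERTAD1 were lost and BCL2L1 was gained among those lower), 1 with length-scaled counts, 1 at an adjusted p under 0.01, and 1 to 3 without single libraries. The count that fell, 1, was 2 with no low-count filter, 2 and 2 with limma, and 1 to 3 without single libraries. With both limma fits BID was gained among those lower. Without 1 library, its partner is assumed to vary like the other group. The median log2 fold change of 0.016 was -0.0243 with no low-count filter, 0.0505 and 0.0516 with limma, and 0.0163 to 0.0687 without single libraries. RLE size factors, a mean CPM of at least 1 and added copies called the same 7 genes. Counts past both limits were 0 throughout.

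With the replicate number as a block, 7 rose and 2 fell (SERTAD1 was lost, and BAX, BCL2L1 and CCNG1 were gained), beside 18.7% of all genes called. The labels give no more than a shared number, and deviations of same-numbered libraries correlated at -0.222 over 9609 genes, so the numbers were not taken to pair the libraries. A crossed pairing, added after seeing the data, gave 2 higher and 1 lower, beside 17% of all genes called.

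Genes that did not pass changed sign in 18 cases. With limma on log2(TPM + 1) and log2(TPM + 0.1), BAD was 0.0505 and 0.0516 and DDB2 0.0359 and 0.0375. With length-scaled counts, MCL1 was -0.0269, BAD 0.011 and DDB2 0.00138. Over the fits without single libraries, MCL1 ranged from -0.00354 to 0.0302, BAD from -0.123 to 0.0214, BBC3 from -0.228 to 0.0351, BCL2L11 from -0.0547 to 0.0986, TP53I3 from -0.254 to 0.0107, XPC from -0.364 to 0.147, POLH from -0.349 to 0.201 and PLK3 from -0.221 to 0.119. The cause was not tested.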
